A study of Mus musculus with 5 samples.

Results

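The 8 genes described here are listed as p53 target genes that act in DNA repair, nucleotide supply and protection from oxidants. They are Xpc, Ddb2, Ercc5, Polk, Rrm2b, Sesn1, Tigar and Gtse1, taken as a fixed list of names from 19505 genes measured under a name on the array, and all 8 were found, each with 1 probe set. p53 is a transcription factor that damaged cells stabilise, and its targets stop the cell cycle, trigger cell death or help the cell to repair its DNA and survive. MDM2 is the ubiquitin ligase that holds p53 low by binding it and sending it for degradation. In the survival branch, p53 is known to raise sensors of damaged bases, a spare subunit for making deoxynucleotides, and proteins that limit reactive oxygen. Whether p53 controls each of the 8 genes in these mouse tumours was not tested.

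The tumours grew under the skin from injected B16.F10 cells (a C57BL/6 mouse melanoma line, labelled luc+GFP+ for luciferase and green fluorescent protein) in wild-type C57BL/6 mice aged 10 weeks. All 5 mice were given anti-PD-1, an antibody against an inhibitory receptor of T cells, by the intraperitoneal route on days 1, 4 and 8. In addition, 2 mice were fed the vehicle, which was corn oil containing 5% DMSO (tumours vehicle 3 and vehicle 4), and 3 mice were fed RG7112, an MDM2 inhibitor that occupies the p53 pocket of MDM2 (tumours RG7112 1, 2 and 3). Oral doses were 2 days apart over a period of 6 days, apparently from 2 days after injection, and tumours were removed on day 13, so the RNA may have been taken some days after the last dose. No group without anti-PD-1 was analysed here, and the labels describe each sample as a mixture of melanoma and infiltrating immune cells. Whole-tumour RNA was hybridised to Affymetrix Clariom S arrays, 1 array and 1 mouse per tumour, and the values are log2 signals from the RMA procedure (1 unit is a 2-fold difference).

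None of the 8 genes differed between RG7112 and vehicle tumours beyond the spread between tumours. In the limma fit over all 22203 probe sets, 0 of the 8 passed an adjusted p under 0.05 in either direction, beside 1.45% of all probe sets (1.42% higher and 0.0315% lower). At an unadjusted p under 0.05, 0 of the 8 passed too (0.271 for Polk to 0.983 for Rrm2b), beside 4.83% of probe sets higher and 4.06% lower. Their adjusted p-values ran from 0.831 to 0.997. The groups overlapped in all 8, as they did in most probe sets. Over all probe sets, every RG7112 tumour lay above both vehicle tumours in 10.8% and below both in 14%. The members' differences ran from -0.097 for Xpc to 0.24 for Polk, with 4 above and 4 below 0. Their median was -0.0013, and the median over all probe sets was -0.027.

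A p that misses the threshold does not show that these genes were the same in both groups, and the intervals say how large a difference the 5 arrays leave possible. The SE of a member's difference was 0.15 to 0.22 on the log2 scale. The widest allowance for a rise was in Polk, whose 95% interval in limma ran up to 0.70, or 1.63-fold. The widest allowance for a fall was in Gtse1, down to -0.49, or 1.41-fold lower. For all 8 members the interval lay inside a 2-fold change either way, as it did for 95.9% of named genes; these intervals are not adjusted for the number of genes. The mean signal lay from the 52.2nd percentile of probe sets (Ddb2) to the 88.7th (Ercc5), but signal depends on each gene's own probes, and no background level was measured here. Fewer cells of a type and less RNA per cell cannot be told apart in such whole-tumour samples.

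**Figure D1:**
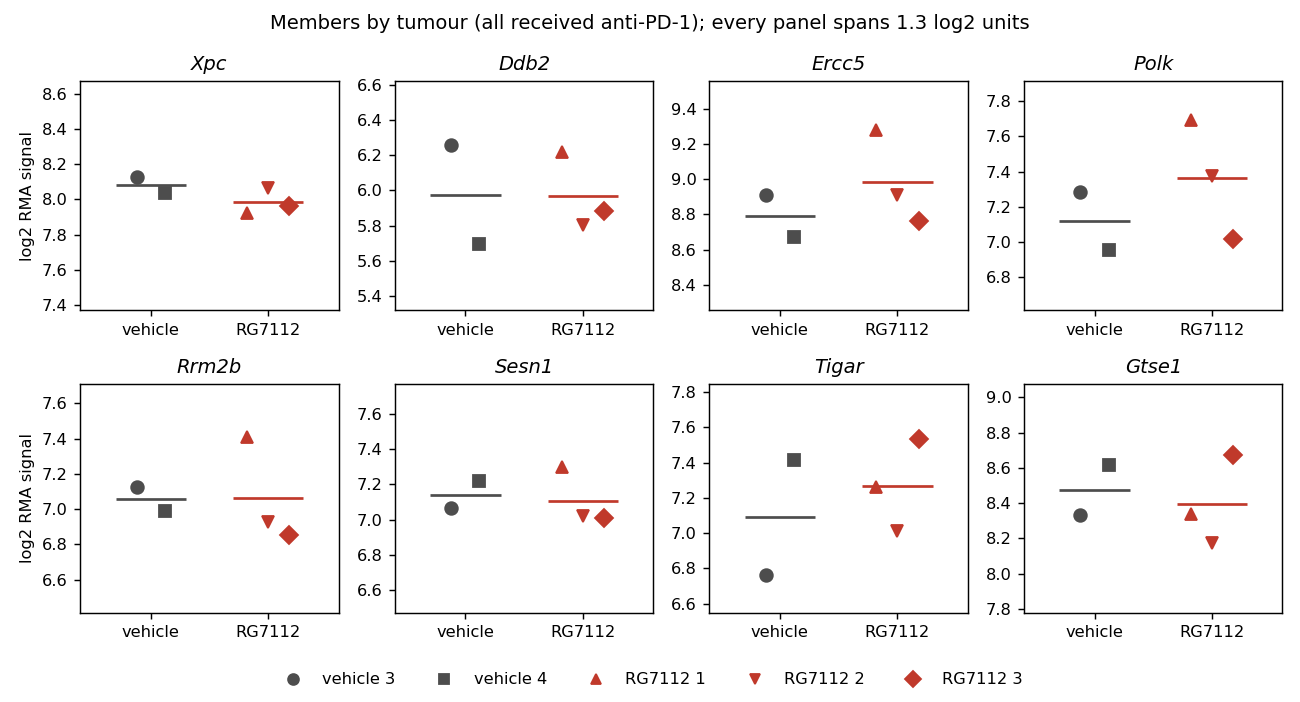
The log2 RMA signal of each of the 8 genes (vertical axis, 1.3 units in every panel) in the 2 vehicle tumours (grey) and the 3 RG7112 tumours (red), with a line at each group's mean. In every panel the red and grey points overlap, and the points of a group spread further than the lines are apart.

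Damage recognition and incision opened the list. Xpc encodes the protein that finds helix distortions and starts global nucleotide excision repair. Its signal was 8.13 and 8.03 in the vehicle tumours and 7.92, 8.06 and 7.96 in the RG7112 tumours. All 5 tumours fell within 0.20 of each other, and RG7112 2 lay between the vehicle tumours. The difference was -0.097 ± 0.15 (SE; adjusted p = 0.927 in limma), and its interval allowed at most a 1.18-fold rise, the tightest upper bound of the 8. Ddb2, the subunit that recognises ultraviolet photoproducts in chromatin, was at 6.26 and 5.69 with vehicle and at 6.22, 5.80 and 5.88 with RG7112. The vehicle tumours were the highest and the lowest of the 5, so that all RG7112 values lay between them, and the means differed by -0.0067 ± 0.20 (adjusted p = 0.996). Ercc5, also called XPG, cuts the damaged strand on the 3′ side of the lesion. It was at 8.91 and 8.67 with vehicle and at 9.28, 8.91 and 8.76 with RG7112, a difference of 0.19 ± 0.19 (adjusted p = 0.859). Only RG7112 1 lay above both vehicle tumours. Without that tumour the difference was 0.044.

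The rest of the excision repair pathway gave the same count. Of 25 measured genes of that list (28 were listed), 0 passed in either direction and 0 had an unadjusted p under 0.05 in limma. Their median difference was 0.086, from -0.24 to 0.31. The smallest p-values were those of Rpa1, a subunit of the single-strand binding protein RPA (0.29 ± 0.16, adjusted p = 0.692), Ercc4, the nuclease that cuts on the 5′ side (0.26 ± 0.16), Ercc6, which acts where RNA polymerase stalls (0.25 ± 0.17), and Gtf2h5, a small subunit of TFIIH (-0.24 ± 0.18). In 4 of the 25 genes every RG7112 tumour lay above both vehicle tumours (Rpa1, Ercc4, Ercc6 and, named after its values were seen, Rpa2), beside 10.8% of all probe sets, and in 0 every one lay below. The list's median moved to -0.024 without vehicle 3 and to 0.024 after quantile normalization of the deposited values.

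Polk encodes DNA polymerase kappa, which copies past bulky lesions such as adducts on guanine. It had the largest difference of the 8. Its signal was 7.28 and 6.95 with vehicle and 7.69, 7.38 and 7.02 with RG7112. RG7112 1 and 2 lay above both vehicle tumours and RG7112 3 lay between them. The difference was 0.24 ± 0.21 (adjusted p = 0.831), and it ran from 0.077 without vehicle 4 to 0.42 without RG7112 3. Of 13 other translesion genes 0 passed, with a median of 0.011. Polh, another polymerase of the same family, differed by 0.13 ± 0.19. The largest difference of that list was in Polq, a polymerase of end joining, at 0.55 ± 0.19 (unadjusted p = 0.0129, adjusted p = 0.314 in limma).

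Rrm2b encodes p53R2, a small subunit of ribonucleotide reductase that supplies deoxynucleotides outside S phase. It was at 7.13 and 6.99 with vehicle and at 7.41, 6.93 and 6.86 with RG7112. RG7112 1 was the highest of the 5 tumours and RG7112 2 and 3 the lowest. The means differed by 0.0042 ± 0.19 (adjusted p = 0.997). Rrm2, the S phase counterpart of Rrm2b, differed by 0.013 ± 0.16, and its 5 values ran from 10.6 to 10.9.

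One gene of nucleotide metabolism did pass. Of 18 genes of deoxynucleotide supply 1 rose, 0 fell and 17 did not pass, with a median of 0.064. Of the 18, 16 lay above 0, beside 44.8% of all probe sets, which are not matched to this list in signal. The list's median was 0.016 after quantile normalization of the deposited values and -0.0012 without RG7112 3. The gene that rose was Samhd1, which breaks deoxynucleotides down and is best known from myeloid cells, where it restricts retroviruses. It was at 8.24 and 8.23 with vehicle and at 9.41, 9.19 and 9.21 with RG7112, so that the groups were well apart. The rise was 1.04 ± 0.16 (SE; adjusted p = 0.00653 in limma), a call lost without vehicle 3 (adjusted p = 0.0954) or vehicle 4 (adjusted p = 0.125), although the size stayed between 0.97 and 1.08. Markers of macrophages and monocytes moved in the same tumours: 10 of 15 measured markers rose, beside 1.42% of all probe sets, and 0 fell. The mean level of these markers was 6.23 to 6.57 with vehicle and 7.53 to 7.93 with RG7112. Their part in the Samhd1 difference was not tested. Nudt1, which removes oxidised nucleotides from the pool, had a difference of 0.42 ± 0.16 (adjusted p = 0.420, not called).

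**Figure D2:**
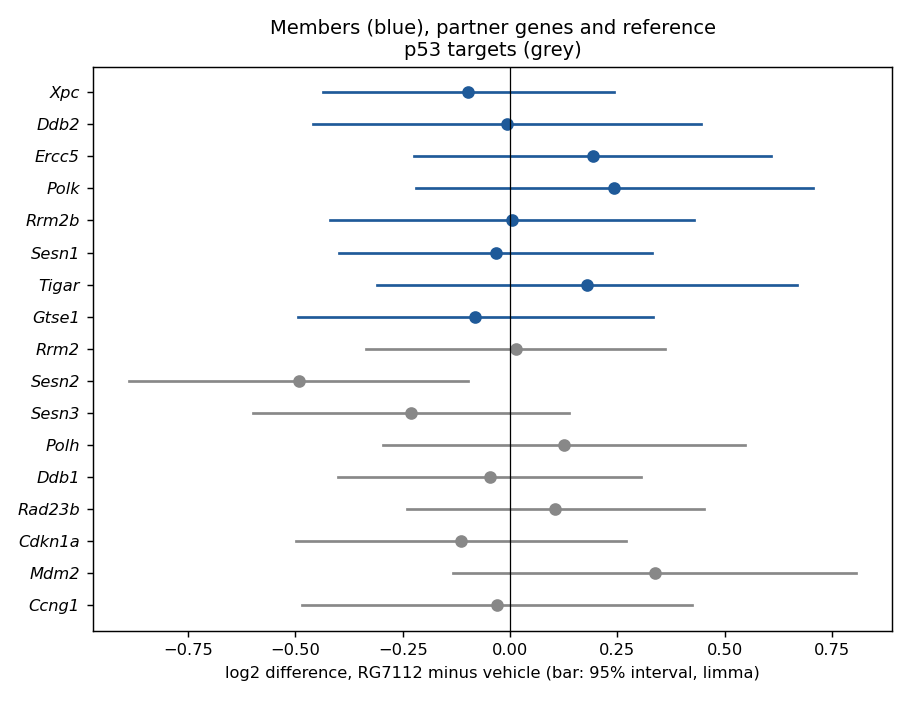
The log2 difference of each gene, RG7112 minus vehicle (horizontal axis; point), with its 95% interval from limma (bar), for the 8 members in blue and for 6 partner genes and 3 other p53 targets in grey. Every blue bar spans 0, and of the grey bars only that of Sesn2 does not; Sesn2 did not pass after adjustment (adjusted p = 0.384).

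Sesn1 encodes sestrin 1, which helps to restore oxidised peroxiredoxins and restrains growth signalling through mTORC1. It was at 7.07 and 7.22 with vehicle and at 7.30, 7.02 and 7.01 with RG7112. RG7112 1 was above both vehicle tumours and RG7112 2 and 3 were below both. The difference was -0.033 ± 0.17 (adjusted p = 0.982). Its relatives had lower values with RG7112 that did not pass. Sesn2, which is also driven by the stress factor ATF4, was at 7.20 and 6.89 with vehicle and at 6.60, 6.34 and 6.73 with RG7112, with no overlap between groups and a difference of -0.49 ± 0.18 (unadjusted p = 0.0191, adjusted p = 0.384 in limma). Sesn3 differed by -0.23 ± 0.17.

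RefSeq windows from 250 bases before to 50 after a gene start (assembly GRCm38.p6) were held for 5 of the 8 members: Ercc5, Polk, Sesn1, Tigar and Gtse1. They were searched for the p53 decamer, the 10-base unit of which p53 response elements hold a pair. A decamer was found in 3 of 8 member windows, 1 each of Sesn1, Polk and Gtse1, and in 8.36% of all 32851 windows. A pair of decamers no more than 13 bases apart was found in 0 of the 8 member windows and in 0.0731% of all windows. Only exact matches to the pattern were counted, so a decamer with 1 differing base was missed. Cdkn1a, which encodes the cell cycle inhibitor p21, is a standard p53 target and has such a pair before 1 of its starts. It is shown beside the single decamer of Sesn1 for comparison, with the exact matches in capitals. The 10 bases straight after the second Cdkn1a decamer miss the pattern at 1 base and stay in lower case. Which of these units p53 binds was not tested. The stretches are chr10:41887249-41887298 and chr17:29090889-29090948, both on the plus strand.
Sesn1: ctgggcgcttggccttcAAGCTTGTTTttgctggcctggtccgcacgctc
Cdkn1a: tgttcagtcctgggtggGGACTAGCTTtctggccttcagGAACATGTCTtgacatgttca
Cdkn1a itself was at 10.9 and 10.7 with vehicle and at 10.9, 10.6 and 10.6 with RG7112 (-0.11 ± 0.17, adjusted p = 0.924 in limma). A match in such a window is not evidence of binding, and p53 elements may lie outside it.

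Tigar encodes a phosphatase that lowers fructose 2,6-bisphosphate, slows glycolysis and leaves more glucose for the pentose phosphate pathway, which makes NADPH against oxidants. Its signal varied most of the 8, over 0.77 log2 units or 1.71-fold. It was at 6.76 and 7.42 with vehicle and at 7.26, 7.01 and 7.53 with RG7112. The vehicle tumours alone were 0.65 apart. The difference was 0.18 ± 0.22 (adjusted p = 0.898), and it was 0.50 without vehicle 4 and -0.15 without vehicle 3, so its direction rested on which of the vehicle tumours was kept.

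The genes around Sesn1 and Tigar gave few differences. Of 29 measured antioxidant genes 0 passed, with a median of 0.039 and values from -0.54 to 0.47. Those with the smallest p-values were Slc7a11, the cystine importer that feeds glutathione synthesis (-0.54 ± 0.16, adjusted p = 0.200 in limma), Sesn2, the thioredoxin reductase Txnrd1 (0.35 ± 0.16) and the secreted glutathione peroxidase Gpx3 (0.32 ± 0.16). In Slc7a11 all RG7112 tumours (6.61 to 6.85) lay below the vehicle tumours (7.24 and 7.32). Over the list the groups did not overlap in 8 of 29 genes, 3 higher and 5 lower, beside 10.8% and 14% of all probe sets. Of 12 genes of the pentose phosphate pathway and fructose bisphosphate control 0 passed, with a median of 0.00040. Pfkfb3, which makes the metabolite that Tigar removes, was at 7.39 and 7.11 with vehicle and at 8.15, 7.92 and 7.65 with RG7112, a difference of 0.65 ± 0.19 that did not pass (adjusted p = 0.185). Pfkm and Pfkl, subunits of phosphofructokinase, differed by -0.33 ± 0.19 and -0.29 ± 0.17, and the lactonase Pgls by -0.20 ± 0.18. Of 15 genes of the GATOR complexes and AMPK, through which sestrins act on mTORC1, 0 passed (median -0.016). Nprl2, a GATOR1 subunit, had the largest difference, 0.40 ± 0.22.

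Gtse1 encodes a microtubule-binding protein of G2 and mitosis that p53 induces and that in turn holds p53 down. It was at 8.33 and 8.62 with vehicle and at 8.34, 8.17 and 8.67 with RG7112. RG7112 3 was the highest tumour and RG7112 2 the lowest. The difference was -0.081 ± 0.19 (adjusted p = 0.953). Other genes of G2 and mitosis did not pass either, 0 of 26, with a median of 0.13. Of these 26, 17 lay above 0, beside 44.8% of all probe sets. The median was 0.016 without vehicle 3, 0.055 without RG7112 3, 0.074 without RG7112 1, 0.20 without vehicle 4 and 0.071 after quantile normalization. Bub1b, a spindle checkpoint kinase, differed by 0.32 ± 0.17, the mitotic kinesin Kif23 by 0.27 ± 0.16, the spindle midzone protein Prc1 by 0.28 ± 0.18 and the topoisomerase Top2a by 0.25 ± 0.17. The proliferation marker Mki67 differed by 0.16 ± 0.17.

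Gtse1 and Tigar had the most CCAAT boxes among the member windows, a motif bound by NF-Y that is common in promoters of cell cycle genes. The motif CCAAT, on either strand, was found in 6 of 8 member windows, from 4 of the 5 genes, and in 37.4% of all windows. How many of all windows hold as many as 3 boxes was not counted. The motif TTTGAA, a core of the cell cycle homology region, was found in 1 of 8, that of Ercc5, and in 17.9% of all windows. The stretches below lie at chr6:127109573-127109712 on the minus strand for Tigar and chr15:85859592-85859656 on the plus strand for Gtse1. They hold 3 and 2 boxes, in capitals, with ATTGG where the box is on the other strand; a further box of Gtse1 spans the gene start and is not shown.
Tigar: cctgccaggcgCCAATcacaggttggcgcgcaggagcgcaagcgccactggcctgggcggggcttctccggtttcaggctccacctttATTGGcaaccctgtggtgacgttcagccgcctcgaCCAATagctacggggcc
Gtse1: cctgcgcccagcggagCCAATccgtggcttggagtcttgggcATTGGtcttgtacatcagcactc
Tigar and Gtse1 had an order over the tumours in common, with vehicle 4 above vehicle 3 and RG7112 3 the highest of the 5. The same order within both groups (vehicle 4 above vehicle 3, RG7112 3 the highest with RG7112) was held by 19.3% of all named genes. Ercc5 and Sesn1, whose windows hold CCAAT too, were highest in RG7112 1. A link between the motif and the order was not tested.

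The other members ran differently over the tumours. In Ddb2, Ercc5, Polk and Rrm2b vehicle 3 was above vehicle 4 and RG7112 1 was the highest RG7112 tumour, an order held by 17.8% of named genes. RG7112 1 was the highest of all 5 tumours in 4 members (Ercc5, Polk, Rrm2b and Sesn1) and in 24.8% of named genes, and the lowest in 1 member (Xpc) and in 24.2%. That array had the widest distribution of the 5, with quartiles of 4.02 and 7.85. All 8 members had a mean above the array's median gene, as 50% of named genes did, so named genes are not matched to them in signal. The part of this in the members' order was not tested. In all 8 members the group means were closer together than the wider of the within-group ranges, as in 86.2% of named genes. The median range over the 5 tumours was 0.56 for the members and 0.47 for named genes. The named genes whose profile over the 5 tumours lay closest to that of Polk, after each gene's mean was removed, were Zfp39, a zinc finger protein (root mean square difference 0.018), the RNA-degrading enzyme Pnpt1 (0.034) and the centrosome protein Cep192 (0.047). Of 18464 genes compared, 104 lay within 0.1 of Polk.

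Members were also set against a related gene on the same array, in 6 pairs. Each gene's signal depends on its own probes, so only the shift between groups can be read. The exact permutation test, two-sided over 10 splits, cannot give a p below 0.1, so it could call no pair in this design and the shifts are a description. Sesn1 minus Sesn3 was -0.78 and -0.64 with vehicle and -0.54, -0.50 and -0.50 with RG7112. The groups did not overlap, which was also so for 24.8% of single probe sets. The shift was 0.20 ± 0.056 (SE), with an exact p = 0.1 in the permutation test, the smallest possible, and 0.6 adjusted over the 6 pairs. It was 0.13 without vehicle 3. Unlike the limma SEs given for genes, the SE of a pair used only that pair's own values and shared no variance across genes. Sesn1 minus Sesn2 shifted by 0.46 ± 0.25 (exact p = 0.3), from 0.23 without vehicle 3 to 0.69 without vehicle 4. Xpc minus its partner Rad23b shifted by -0.20 ± 0.13 (exact p = 0.3), from -0.083 without vehicle 3 to -0.32 without vehicle 4, and was -0.12 without RG7112 1. Rrm2b minus Rrm2 shifted by -0.0086 ± 0.27, Polk minus Polh by 0.12 ± 0.42 and Ddb2 minus Ddb1, its partner in the photoproduct sensor, by 0.040 ± 0.28, each with an exact p = 0.9.

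**Figure D3:**
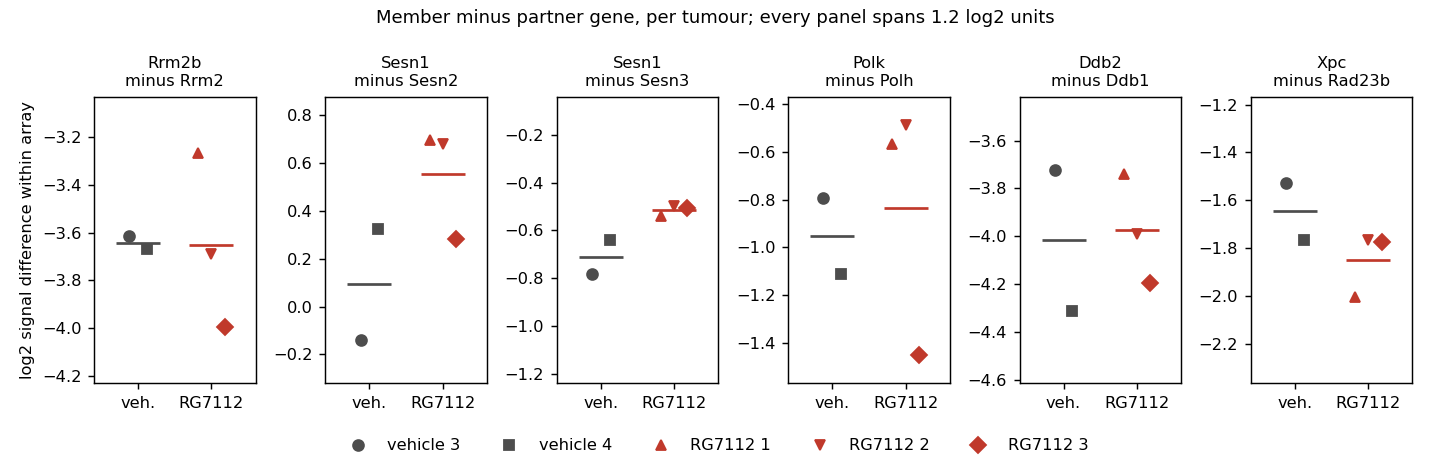
The log2 signal of a member minus that of a related gene on the same array (vertical axis, 1.2 units in every panel) in the 2 vehicle tumours (grey) and 3 RG7112 tumours (red), with a line at each group's mean. The groups are apart only for Sesn1 minus Sesn3, with -0.78 and -0.64 against -0.54 to -0.50. For single probe sets, the groups were apart in 24.8%.

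The wider set of p53 targets is given for scale. Of 28 other target genes measured (30 were listed), 0 passed in limma, 1 had an unadjusted p under 0.05 above 0 and 1 below it, and the median was -0.027. Mdm2, the target that feeds back on p53, was at 9.28 and 9.26 with vehicle and at 9.97, 9.65 and 9.20 with RG7112. RG7112 1 and 2 were above both vehicle tumours and RG7112 3 below both, and the difference was 0.34 ± 0.21 (adjusted p = 0.738). Ccng1, a cyclin that p53 induces strongly, differed by -0.031 ± 0.21. The largest differences were in Ddit4, an inhibitor of mTORC1 that also answers to hypoxia and ATF4 (-0.77 ± 0.18, adjusted p = 0.0748), and in the kinase Plk2 (0.64 ± 0.16, adjusted p = 0.114); Perp, a membrane protein of apoptosis and cell adhesion, differed by 0.51 ± 0.25. Ddit4 passed with an intensity trend in the variance prior (adjusted p = 0.0238) or with array weights (adjusted p = 0.0389).

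Among markers of other cell types, those of macrophages and monocytes passed most often, 10 of 15, beside 1.42% of all probe sets higher. Of the others, 1 of 10 T cell markers and 1 of 8 endothelial markers passed as higher. None passed among 8 NK cell, 6 B cell, 6 neutrophil, 8 fibroblast, 12 melanocyte lineage and 7 keratinocyte markers. Differences were above 0 in all 10 T cell, 8 NK cell and 8 endothelial markers, beside 44.8% of all probe sets. They were below 0 in all 6 B cell markers and in 6 of 7 keratinocyte markers. The B cell list had a mean level of 4.30 to 4.32 with vehicle and 3.79 to 4.39 with RG7112, so the groups overlapped. The keratinocyte list had 4.41 to 4.48 with vehicle and 4.18 to 4.29 with RG7112. Both lists were dim, on arrays whose lower quartiles were 4.02 to 4.13. The T cell list had a mean level of 4.95 to 4.99 with vehicle and 5.41 to 5.53 with RG7112. The endothelial list had 5.87 to 6.02 with vehicle and 6.35 to 6.48 with RG7112. The melanocyte lineage list had a mean level of 11.05 to 11.13 with vehicle and 11.19 to 11.25 with RG7112, which is high on arrays whose medians were 5.76 to 5.81. The part of these shifts in the members' values was not tested.

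**Figure D4:**
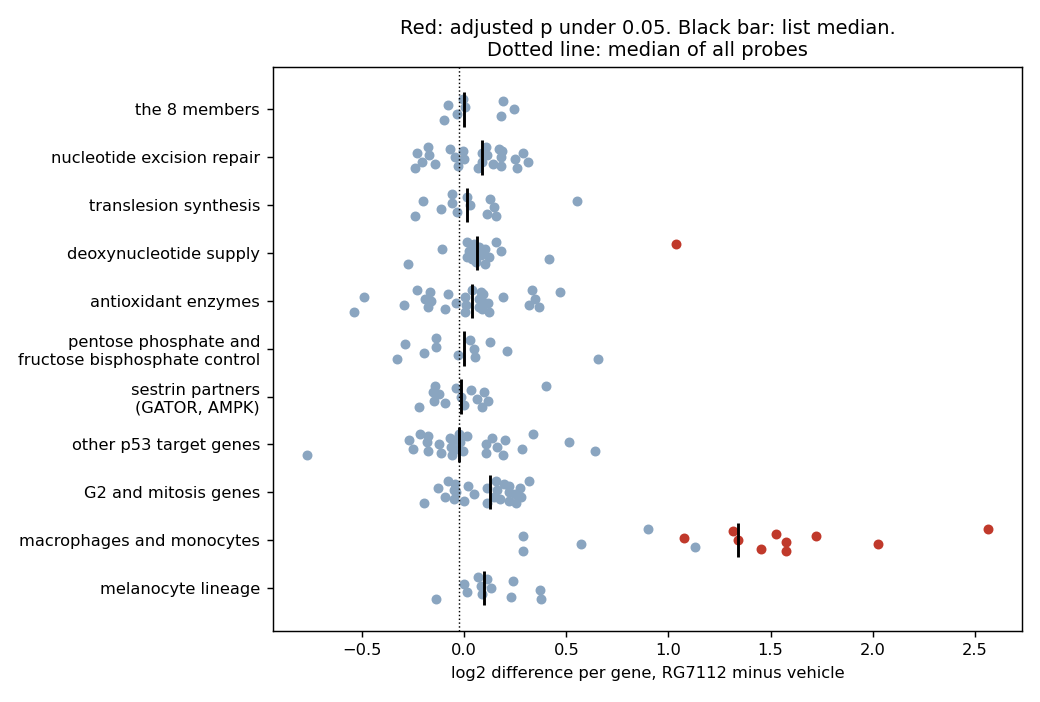
Each point is a gene's log2 difference, RG7112 minus vehicle (horizontal axis), by list (vertical axis), in red where the limma adjusted p was under 0.05; black bars are list medians and the dotted line is the median of all probe sets (-0.027). The 8 members lie between -0.097 and 0.24 with none in red, Samhd1 is the only red point among the lists of repair, nucleotide, antioxidant, p53 and mitosis genes, and 10 of 15 macrophage and monocyte markers are red.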

How the data were processed

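The authors deposited log2 signals, 1 column per tumour, and the submitters' processing notes name oligo and RMA (background correction, quantile normalization and a summary per probe set); their versions: not given in the sources used here. Quantile normalization brings the arrays close to a common distribution, so a shift shared by most genes could not be seen. The deposited arrays still differed, with upper quartiles from 7.72 (vehicle 3) to 7.85 (RG7112 1). Quantile normalization of the deposited values lowered the difference of every member, such as Xpc from -0.097 to -0.145 and Polk from 0.24 to 0.19. No scan dates or slides were used here, so batches were not examined. The platform annotation gave 1 symbol to 19572 of 22203 probe sets, several to 0 and none to 2631, and all 19572 were found in RefSeq by Entrez identifier. The probe set with the highest mean stood for a gene. Differences were tested with limma 3.58.1 under R 4.3.3 (lmFit and eBayes, 3 residual and 7.92 prior degrees of freedom). The p-values were adjusted by Benjamini-Hochberg over all probe sets, with a call at adjusted p under 0.05. The pipeline was tested on simulated data, in which the added differences were larger than those of the members.

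The members and lists were chosen with earlier results of these data known. Beside the members, genes were named as partners, as references, as the up to 4 genes of each list with the smallest p, or for a profile close to that of the member with the smallest p. Of the references, Bax was not analysed here. The number of arrays limits the precision. Alternatives were a trend or robust prior, array weights, renormalization (quantile, cyclic loess), a filter at the 40th percentile, 1 probe set per gene, adjusted p under 0.10, and each tumour left out.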

Additional observations from a re-analysis of the deposited data

How the results depend on the processing

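In none of the 13 alternatives was any of the 8 members called, and their median difference stayed between -0.060 and 0.074. The directions of Xpc, Ercc5 and Polk held in all alternatives run. Those of the others are not settled: leaving out 1 tumour gave -0.29 to 0.27 for Ddb2, -0.17 to 0.11 for Rrm2b, -0.13 to 0.043 for Sesn1, -0.15 to 0.50 for Tigar and -0.22 to 0.060 for Gtse1. Cyclic loess gave 0.040 for Ddb2 and -0.0018 for Rrm2b, and Rrm2b was -0.022 with array weights and -0.051 after quantile normalization. Among pairs, leaving out 1 tumour gave -0.20 to 0.16 for Rrm2b minus Rrm2 (0.0024 with cyclic loess), -0.056 to 0.43 for Polk minus Polh, -0.25 to 0.34 for Ddb2 minus Ddb1, 0.23 to 0.69 for Sesn1 minus Sesn2, 0.13 to 0.27 for Sesn1 minus Sesn3 and -0.32 to -0.083 for Xpc minus Rad23b. Each member has 1 probe set, so averaging probe sets changed nothing.

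Over the whole array, 315 probe sets were higher and 7 lower; leaving out 1 tumour gave 65 to 268 higher (65 without vehicle 4, 151 without vehicle 3) and 0 to 5 lower. Lower calls numbered 16 with array weights, 4 with cyclic loess, 2 without dim probe sets and 29 at adjusted p under 0.10. Among other p53 targets 1 gene was called with an intensity trend, with array weights and at adjusted p under 0.10, where the main count was 0. Leaving out 1 tumour gave 0 to 1 called genes of deoxynucleotide supply, and medians of -0.024 to 0.085 for excision repair, -0.048 to 0.0016 for the pentose phosphate list, -0.064 to 0.095 for other p53 targets, -0.062 to 0.057 for translesion synthesis, -0.034 to 0.078 for antioxidant genes, -0.0012 to 0.14 for deoxynucleotide supply, -0.068 to 0.036 for the sestrin partners and 0.016 to 0.20 for G2 and mitosis. The causes were not tested. No paired analysis was possible because the groups share only the number 3, and nothing says that it pairs these mice. With 2 vehicle arrays, the 95% intervals of the members leave room for rises of 1.18-fold (Xpc) to 1.63-fold (Polk).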
